A study of Mus musculus with 3 samples.

Results

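Capillary endothelial cells that carry RNA for Gpihbp1 were taken from regenerating mouse muscle as 1607 of 35247 kept cells. The members were chosen by reading raw unique molecular identifiers (UMIs, the counts of distinct RNA molecules) in each cell: at least 500 genes detected, under 10% of UMIs from mitochondrial genes, at least 3 UMIs over Pecam1, Cdh5 and Cldn5, none of Ptprc, none of Pdgfra, and at least 2 of Gpihbp1. The cells came from 3 single-cell RNA libraries made on the 10x Chromium system, each from the injured tibialis anterior muscles of C57/BL6J mice pooled in triplicate and collected 4 days after barium chloride injection. The young PBS library came from mice of 3 to 4 months given phosphate-buffered saline, the old PBS library from mice of 24 to 26 months given the same vehicle, and the old rMETRNL library from mice of 24 to 26 months given recombinant Meteorin-like protein at 0, 24 and 48 h. The study's text gives differing values for its dose, which is left out here. With 1 pooled library per group there was no replicate, so differences are given between libraries with 95% intervals that cover counting error only, and no test between ages or treatments was possible.

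GPIHBP1 is a membrane-anchored protein of capillary endothelial cells that binds lipoprotein lipase in the tissue space, carries it across the cell and holds it at the blood-facing surface. There the enzyme releases fatty acids from circulating triglyceride, which the endothelium passes on to muscle with the help of CD36 and FABP4. After muscle injury capillaries also divide and sprout, led by tip cells that make apelin and placental growth factor, and they exchange angiocrine signals with macrophages and muscle stem cells.

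Young PBS gave 426 gated cells from 11403 kept cells (3.74%, exact 95% interval 3.40 to 4.10), old PBS 555 from 11058 (5.02%, 4.62 to 5.44) and old rMETRNL 626 from 12786 (4.90%, 4.53 to 5.28). They were 69.2%, 67.0% and 70.8% of the cells passing the endothelial markers alone. The share of kept cells was 1.34 times higher in old PBS than in young PBS (1.18 to 1.53), and the old rMETRNL share was 0.975 times that of old PBS (0.869 to 1.10). Both contrasts use the same old PBS library, so they are not independent of each other. Kept cells as a whole had a median of 15609, 13907.5 and 14688.5 UMIs in young PBS, old PBS and old rMETRNL, and 214 cell barcodes were shared over the 3 pairs of libraries, of which 0 were among the gated cells. Gpihbp1 lies on chromosome 15 at 75596628 to 75599481 on the plus strand of GRCm38.

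The gate itself fixed the level of 4 genes, which are given as a description. Gpihbp1 was present at 974, 1159.8 and 1029 CPM (UMIs of a gene per 1000000 UMIs of the summed gated cells) in young PBS, old PBS and old rMETRNL. Pecam1, an adhesion molecule of endothelial junctions, was at 1088, 1122 and 1081 CPM, and Cdh5, the cadherin of those junctions, was at 1379, 1315 and 1296 CPM. Cldn5, a tight junction protein, was at 865, 1085 and 794 CPM. The median gated cell held 11, 5 and 7 Gpihbp1 UMIs. At the edge of the gate, 50, 103 and 76 cells entered with exactly 2 Gpihbp1 UMIs, at median depths of 3387, 2642 and 2753.5 UMIs, while 54, 93 and 92 cells with 1 Gpihbp1 UMI stayed outside it, at medians of 8354, 2233 and 3896.5 UMIs. All 16 measured genes of a pan-endothelial list had UMIs in every library. The list summed to 5659.5, 6059 and 5664 CPM in the gated cells and to 49.8, 40.9 and 47.7 CPM in Ptprc positive cells. Ptprc positive cells were taken with no UMI of Pecam1, Cdh5, Cldn5 or Pdgfra, and Pdgfra positive cells with none of Pecam1, Cdh5, Cldn5 or Ptprc. The contrast with Ptprc positive cells is thus favoured by the gates and is given as a description.

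The old PBS members were shallower than the others. The median gated cell had 12874 UMIs and 3360 genes in young PBS, 4269 UMIs and 1722 genes in old PBS, and 8630 UMIs and 2751 genes in old rMETRNL. Cells under 5000 UMIs made up 84 of the 426 young PBS members (19.7%), 311 of the 555 old PBS members (56.0%) and 223 of the 626 old rMETRNL members (35.6%). The 721 cells that passed the endothelial markers with 0 or 1 Gpihbp1 UMI had the same order, with medians of 10099, 4773 and 7270.5 UMIs, so low depth in old PBS was shared with them. Venous-type cells, taken by the endothelial markers with no Gpihbp1 UMI and at least 2 UMIs over Vwf, Selp and Ackr1, had medians of 11688, 10274 and 10728 UMIs, although that rule itself favours deep cells. Per kept cell, members of at least 5000 UMIs were 0.736 times as frequent in old PBS as in young PBS (0.622 to 0.870) and 1.43 times as frequent in old rMETRNL as in old PBS (1.22 to 1.68). Members under 5000 UMIs were 3.82 times as frequent in old PBS as in young PBS (2.99 to 4.92) and 0.620 times as frequent in old rMETRNL as in old PBS (0.520 to 0.739). The higher share of gated cells in old PBS therefore lay in shallow cells, and among deep cells old PBS had the lowest share of the 3 libraries. Kept cells as a whole were also shallow more often in old PBS, where 2058 of 11058 (18.6%) had under 5000 UMIs. In young PBS 848 of 11403 did (7.44%), and in old rMETRNL 1709 of 12786 (13.4%). Members were 311 of the 2058 shallow kept cells of old PBS, against 84 of 848 and 223 of 1709. The excess of shallow cells in old PBS was thus not confined to the gated cells. What set the depth of the gated cells was not tested.

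**Figure D1:**
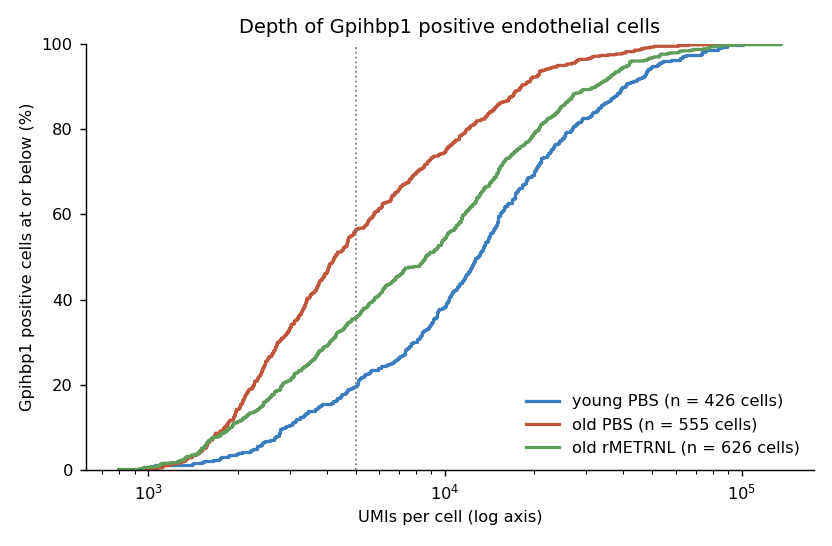
Cumulative share of Gpihbp1 positive cells (vertical axis) against UMIs per cell (horizontal log axis), one line for each library, with a dotted line at 5000 UMIs. At that line the curves stand at 19.7% for young PBS, 35.6% for old rMETRNL and 56.0% for old PBS.

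The gated cells were set beside these 721 other endothelial cells, a set that holds venous-type cells and also shallow cells that missed the threshold. Of 9728 genes with at least 100 UMIs over the 3 libraries, 468 (4.81%) were at least 1.5 times higher in the gated cells in every library and 415 (4.27%) at least 1.5 times lower. Car4, the carbonic anhydrase anchored to capillary walls, was 7.61, 3.92 and 3.26 times higher in young PBS, old PBS and old rMETRNL. Placental growth factor (Pgf) was 4.24, 5.94 and 5.56 times higher, and Prnd, which encodes the prion-like protein doppel of sprouting vessels, was 6.4, 16.8 and 4.75 times higher. The receptor tyrosine kinase Kit was 3.25, 4.89 and 4.33 times higher, the chemokine receptor Cxcr4 was 3.61, 4.08 and 3.36 times higher, and the basement membrane protein Nid2 was 4.07, 4.01 and 3.90 times higher. Bmp2, a ligand of the BMP family, was 5.27, 3.36 and 11 times higher. Genes that mark capillaries and genes that mark sprouts thus stood together at the top of these cells.

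Genes of veins stood at the other end. Ackr1, the chemokine-binding receptor of venules, was at 0.0904, 0.132 and 0.0560 of its level in the other endothelial cells in young PBS, old PBS and old rMETRNL. Selp (P-selectin) was at 0.125, 0.194 and 0.106 of it, and Vwf (von Willebrand factor) at 0.119, 0.223 and 0.129. Mgp, the matrix Gla protein, was at 0.0699, 0.0779 and 0.0615, and Igf2, an insulin-like growth factor, at 0.0447, 0.0916 and 0.0844. By list, the median log2 ratio over the other endothelial cells was 0.88, 0.76 and 0.59 for 21 capillary and lipid handling genes, 1.15, 1.41 and 1.19 for 18 tip and sprouting genes, 1.59, 1.06 and 0.58 for 21 cell cycle genes, and -2.27, -2.09 and -2.40 for 9 venous genes. Over all genes tested the same medians were 0.06, 0.07 and 0.07.

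**Figure D2:**
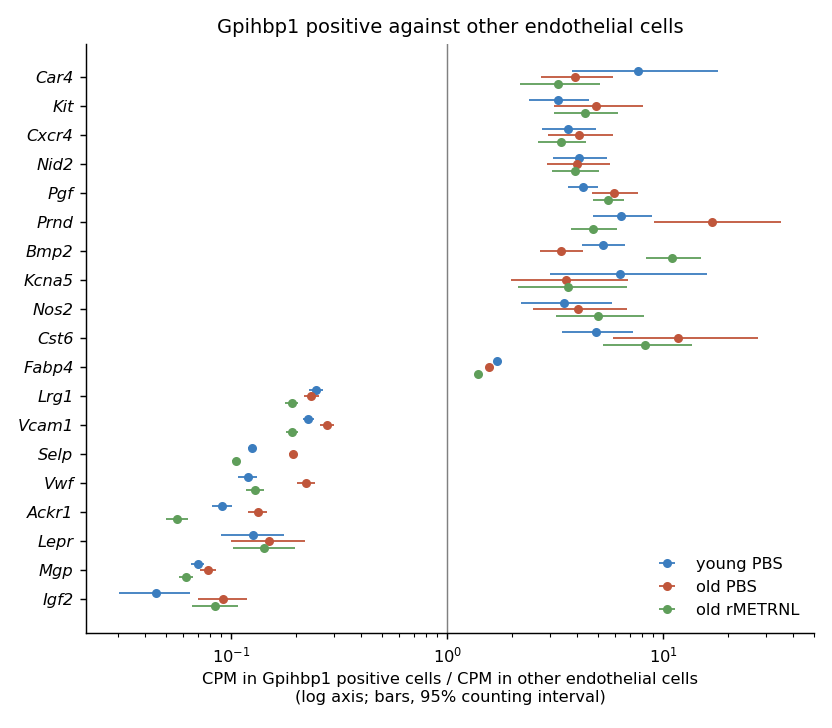
Ratio of the CPM in Gpihbp1 positive cells to that in other endothelial cells (horizontal log axis, ratio of 1 marked) for 19 named genes, one point for each library. Car4, Pgf, Prnd and Kit lie above 3 in every library, and Ackr1, Mgp and Igf2 below 0.2.

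Because depth differed, shares of cells with a programme were read after thinning each cell to 2000 UMIs, which left out 16, 79 and 71 shallower members and kept 410, 476 and 555 in young PBS, old PBS and old rMETRNL. A cell counted when it held at least 2 UMIs of a list. For the whole cell cycle list the share was 72.9%, 73.9% and 72.8%, with 96.2%, 89.5% and 92.8% without thinning. Thinned Ptprc positive cells gave 73.9%, 73.5% and 73.95%, near the members. Thinned Pdgfra positive cells gave 49.3%, 46.6% and 49.6%, and the other endothelial cells 60.5%, 61.4% and 64.2%, below the members in every library. Since the classes differed, no share of dividing members is read from this list. The old PBS share of members was 1.01 times that of young PBS (0.867 to 1.19). For 11 genes of mitosis, a list chosen after the data had been seen, the share was 19.0% in young PBS (15.3 to 23.2), 8.4% in old PBS (6.07 to 11.3) and 13.5% in old rMETRNL (10.8 to 16.6), against 33.8%, 13.7% and 24.4% without thinning. Ptprc positive cells thinned the same way gave 9.28%, 8.39% and 11.2%, from median depths of 13974.5, 14646 and 14215.5 UMIs where the members had 13447, 5365 and 10326. Thinned Pdgfra positive cells gave 10.96%, 7.47% and 12.7%, and the other endothelial cells gave 6.21%, 4.35% and 9.95%, so old PBS was the lowest library in these classes too. Immune cells also divide, so that share is not a pure background, but the old PBS members were at it and their share is not read as dividing cells. For the mitosis genes the old PBS share of members was 0.442 times that of young PBS (0.294 to 0.655), and the old rMETRNL share was 1.61 times that of old PBS (1.08 to 2.42).

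Tip and sprouting genes reached 2 UMIs in 92.7% of young PBS members, 80.3% of old PBS members and 85.8% of old rMETRNL members after thinning, and in 96.9%, 89.5% and 92.0% without it. Ptprc positive cells gave 28.8%, 27.5% and 22.8%. The Pdgfra positive fibro-adipogenic cells gave 70.6%, 80.1% and 71.8%, and the old PBS members were at that share, which is therefore not read as sprouting. The other endothelial cells gave 78.5%, 68.1% and 80.1%, again lowest in old PBS. Arterial genes reached 2 UMIs in 39.8%, 44.5% and 46.5% of members, with 85.4%, 71.2% and 81.6% without thinning and 0.229%, 0.473% and 0.319% in thinned Ptprc positive cells. Venous genes did so in 32.2%, 24.2% and 27.7% of members, with 71.6%, 42.2% and 58.6% without thinning and 2.82%, 2.70% and 2.09% in thinned Ptprc positive cells. Thinned Pdgfra positive cells gave 12.3%, 11.7% and 10.1% for the arterial and 12.6%, 13.01% and 12.3% for the venous genes, below the members in every library. The other endothelial cells gave 42.4%, 47.8% and 40.3% for the arterial genes, near the members. For the venous genes they gave 68.9%, 57.5% and 64.2%, above the members. Lymphatic genes reached 2 UMIs in 0.732%, 1.26% and 1.08% of members, with 17.8%, 7.93% and 14.9% without thinning, which was below the 1.65%, 2.05% and 2.25% of thinned Ptprc positive cells and is read as background.

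Between old PBS and young PBS members, 673 of 9728 genes (6.92%) were at least 1.5 times higher and 773 (7.95%) at least 1.5 times lower. This ratio of old PBS to young PBS CPM is called the fold for age, and the ratio of old rMETRNL to old PBS CPM the fold for treatment, and where a gene is given a pair of folds the first is for age. Between old rMETRNL and old PBS members, 497 genes (5.11%) were at least 1.5 times higher and 516 (5.3%) at least 1.5 times lower. Between old rMETRNL and young PBS members, 205 genes (2.11%) were higher and 247 (2.54%) lower by that size. Of all genes 45% had a fold for age above 1 and 55% below it, 55% had a fold for treatment above 1, and 49.1% were higher in old rMETRNL than in young PBS. In cells under 5000 UMIs 4628 of 9728 genes had a fold for age above 1 and 5041 a fold for treatment above 1. Counts of higher or lower genes in a list are to be read against these shares. The median log2 ratio over all genes was -0.05 for age and 0.04 for treatment. Scaling by size factors shifted the split to 817 higher and 625 lower for age and to 410 higher and 608 lower for treatment. Depth touched these folds. Of 97 genes followed below, 2 folds for age and 3 folds for treatment lay on the other side of 1 within cells of at least 5000 UMIs, while in cells under 5000 UMIs 13 of 92 folds for age and 26 of 96 folds for treatment did. Each group was 1 pool of mice, so a difference between pools cannot be told apart from one of age or treatment.

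The lists differed in direction. For age (old PBS over young PBS, log2) the median was 0.41 over 17 immediate early genes, 0.37 over 11 senescence and growth arrest genes, 0.36 over 15 leukocyte adhesion and chemokine genes, 0.34 over 13 Notch genes, 0.28 over 15 BMP and TGF-beta genes and 0.23 over 21 capillary and lipid handling genes. It was -0.61 over 21 cell cycle genes, -0.36 over 20 glycolysis and hypoxia genes, -0.24 over 18 tip and sprouting genes, -0.23 over 15 basement membrane genes and -0.18 over 16 genes of fatty acid oxidation and PPAR targets. For treatment (old rMETRNL over old PBS) the same lists had medians of -0.44, -0.34, -0.26, -0.23, -0.27 and -0.29, and then of 0.32, 0.38, 0.28, 0.30 and 0.08. The old PBS library enters both contrasts in opposite places, so opposite signs are favoured by the pairing and are not read as a reversal by treatment. Medians near 0 were found for 16 pan-endothelial genes, at -0.07 and -0.07, and 12 junction and barrier genes, at -0.01 and -0.09, although their members went both ways, with folds for age from 0.739 to 1.74 and from 0.796 to 1.53. In cells under 5000 UMIs the leukocyte adhesion medians turned to -0.14 and 0.04 and the treatment median of the senescence list to 0.08.

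**Figure D3:**
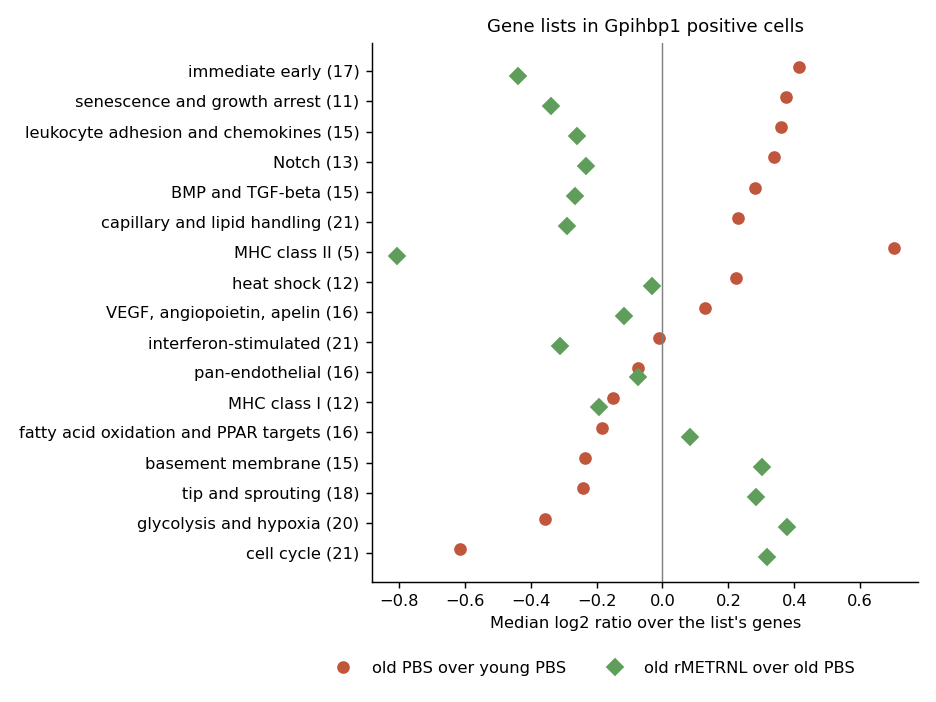
Median log2 ratio over the measured genes of 17 lists in Gpihbp1 positive cells (horizontal axis), with circles for age (old PBS over young PBS) and diamonds for treatment (old rMETRNL over old PBS). The cell cycle list lies at -0.61 and 0.32 and the immediate early list at 0.41 and -0.44.

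Of 21 measured genes of the quiescent capillary and of lipid handling, 14 had a fold for age above 1, with 6 past 1.5-fold higher, against 6.92% of all genes, and 2 past it lower. A fold for treatment above 1 was found for 4, with 0 past 1.5-fold higher and 5 past it lower. In cells under 5000 UMIs 10 of 21 had a fold for age above 1 and 15 of 21 a fold for treatment above 1, with medians of -0.01 and 0.07, so the direction of the list was not held there. Aqp1, the water channel of capillary endothelium, was at 701, 1833 and 1035 CPM in young PBS, old PBS and old rMETRNL, a fold for age of 2.61 (2.52 to 2.71) and a fold for treatment of 0.565 (0.548 to 0.582), the latter 1.03 in cells under 5000 UMIs. Timp4, a tissue inhibitor of metalloproteinases, was at 27.1, 114 and 40.6 CPM, at folds of 4.22 (3.59 to 4.99) and 0.355 (0.308 to 0.408), the furthest from 1 in the list for both contrasts, although the second was 0.969 in cells under 5000 UMIs. Car4 was at 28.9, 67.8 and 36.5 CPM, at folds of 2.34 (1.96 to 2.80) and 0.539 (0.458 to 0.634). Old PBS was the highest library for all 3 of these genes. Fabp4, a fatty acid binding protein, was at 11558, 10883 and 8903 CPM, so its fold for age was 0.942 and its fold for treatment 0.818.

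The partners of GPIHBP1 were looked at after their values had been seen. Cd36, the fatty acid carrier of the endothelial surface, was at 825, 1188 and 744 CPM in young PBS, old PBS and old rMETRNL, with a fold for age of 1.44 (1.39 to 1.49) and a fold for treatment of 0.626 (0.604 to 0.650). Lpl, which encodes lipoprotein lipase, was at 166, 274 and 197 CPM, at folds of 1.65 (1.53 to 1.79) and 0.719 (0.667 to 0.774). Both folds of Lpl turned in cells under 5000 UMIs, to 0.901 for age and 1.36 for treatment. Lpl was at 852 CPM in Ptprc positive cells and at 364 CPM in Pdgfra positive cells of old PBS, above the members' own level, and the part of RNA from those cells in the members' Lpl was not tested. Angptl4, a secreted inhibitor of lipoprotein lipase, went the other way, at 264, 138 and 218 CPM, with a fold for age of 0.522 (0.476 to 0.571) and a fold for treatment of 1.58 (1.44 to 1.74).

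The receptors for vascular endothelial growth factor were higher in old PBS members than in young PBS members. Flt1 (VEGF receptor 1) was at 651, 1134 and 860 CPM in young PBS, old PBS and old rMETRNL, at folds of 1.74 (1.68 to 1.81) for age and 0.758 (0.731 to 0.786) for treatment. Kdr (VEGF receptor 2) was at 317, 489 and 376 CPM, at folds of 1.54 (1.45 to 1.63) and 0.768 (0.727 to 0.812). The co-receptor Nrp1 was at 306, 462 and 373 CPM, at folds of 1.51 (1.42 to 1.60) and 0.808 (0.764 to 0.855). All 3 receptors were thus highest in old PBS and lowest in young PBS. The ligand gene Vegfa was at 6.55, 13.1 and 7.85 CPM, below the 45.7 and 61.8 CPM of Ptprc positive and Pdgfra positive cells in old PBS.

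Of 18 measured tip and sprouting genes 4 had a fold for age above 1, against 45% of all genes, with 2 past 1.5-fold lower, against 7.95%, and 1 past it higher, against 6.92%. A fold for treatment above 1 was found for 16 of them, with 3 past 1.5-fold higher, against 5.11%, and 0 past it lower. Most of the list thus differed by less than 1.5-fold. In cells under 5000 UMIs 6 had a fold for age and 11 a fold for treatment above 1. Apln, the apelin ligand of tip cells, was at 100.1, 58.4 and 135 CPM in young PBS, old PBS and old rMETRNL, at folds of 0.583 (0.504 to 0.672) and 2.31 (2.02 to 2.65). It was found in 100 of 426 young PBS members, 41 of 555 old PBS members and 100 of 626 old rMETRNL members, and 5 cells held 33.1%, 57.9% and 40.2% of its UMIs. The apelin receptor Aplnr was at 189, 97.1 and 134 CPM, at folds of 0.515 (0.461 to 0.574) and 1.38 (1.24 to 1.55). Pgf was at 320.1, 241 and 391 CPM, at folds of 0.752 (0.700 to 0.809) and 1.63 (1.52 to 1.74). Apln and Pgf were highest in old rMETRNL, and Aplnr in young PBS. Esm1, a secreted proteoglycan of tip cells, was at 6.55, 5.18 and 11.4 CPM in 19, 12 and 38 cells, and Insr, the insulin receptor and the gene past 1.5-fold higher for age, was at 28.0, 45.7 and 34.9 CPM.

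Igfbp3, a secreted binding protein for insulin-like growth factors, lies on chromosome 11 at 7206086 to 7213923 and was among the genes with the largest fold for treatment. It was at 314, 123 and 402 CPM in young PBS, old PBS and old rMETRNL, with a fold for age of 0.392 (0.356 to 0.430) and a fold for treatment of 3.27 (2.98 to 3.58). Its UMIs were spread over 174, 161 and 250 cells, of which 5 cells held 31.7%, 31.1% and 31.5%. Other genes of this order for treatment were Nupr1, a stress-induced nuclear protein, at 44.0, 17.1 and 49.5 CPM (2.89, 2.26 to 3.74), Akr1b8, an aldo-keto reductase, at 37.7, 21.9 and 63.0 CPM (2.88, 2.32 to 3.61), and Cd276, a B7 family surface protein, at 36.1, 12.8 and 36.8 CPM (2.86, 2.15 to 3.87). In each of them old PBS was the lowest library, although the fold for age of Nupr1 turned from 0.389 to 1.71 in cells under 5000 UMIs. Prnd was at 131, 90.6 and 158 CPM, at folds of 0.693 and 1.74, the second of which turned to 0.842 in cells under 5000 UMIs, and Bmp2 at 205, 159.7 and 247 CPM, at folds of 0.779 and 1.55.

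Basement membrane genes were lower in old PBS for 10 of 15, against 55% of all genes, with 3 past 1.5-fold lower and 1 past it higher. The gene past it higher was Lamb2, a laminin chain, at 59.6, 91.2 and 60.6 CPM in young PBS, old PBS and old rMETRNL, a fold for age of 1.53 (1.34 to 1.76). Col4a1 was at 2661, 2125 and 2634 CPM in young PBS, old PBS and old rMETRNL, and Col4a2 at 1650.5, 1344 and 1657 CPM, both chains of the collagen IV network. Sparc, a collagen-binding matricellular protein, was at 5138, 3716 and 4791 CPM, at folds of 0.723 (0.710 to 0.737) for age and 1.29 (1.27 to 1.31) for treatment, although Pdgfra positive cells held far more of it, at 8711 CPM in old PBS. Col18a1, the collagen that yields endostatin, differed most, at 402, 189 and 369 CPM, at folds of 0.472 (0.437 to 0.509) and 1.95 (1.802 to 2.1). Col15a1, a related collagen of vessel walls, was at 535, 334 and 449.6 CPM, at folds of 0.624 (0.588 to 0.663) and 1.35 (1.27 to 1.43). In all of these genes but Lamb2 old PBS was the lowest library, and among the collagens and Sparc the ratio of old rMETRNL to young PBS ran from 0.841 for Col15a1 to 1.004 for Col4a2. Fn1 (fibronectin) was at 113, 71.2 and 99.01 CPM against 3312 CPM in Pdgfra positive cells of old PBS, and its fold for age turned to 1.45 in members under 5000 UMIs.

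Cell cycle genes were lower in old PBS members for 19 of 21, with 11 past 1.5-fold lower, against 7.95% of all genes, and 1 past it higher. Among shallow cells, under 5000 UMIs, 10 of 21 had a fold for age above 1. Over all members 16 of 21 were higher in old rMETRNL than in old PBS, with 2 past 1.5-fold higher, against 5.11% of all genes, and 1 past it lower. The gene past 1.5-fold the other way in both contrasts was Pcna, the sliding clamp of DNA replication, at 175, 272 and 174 CPM in young PBS, old PBS and old rMETRNL, with a fold for age of 1.56 (1.44 to 1.69) and a fold for treatment of 0.640 (0.592 to 0.691). Cenpe, a kinesin of the kinetochore, was at 88.6, 27.3 and 50.9 CPM in young PBS, old PBS and old rMETRNL, at folds of 0.308 (0.251 to 0.374) and 1.87 (1.52 to 2.31). Ube2c, a ubiquitin enzyme of mitotic exit, was at 173, 55.9 and 101.4 CPM, at folds of 0.323 (0.281 to 0.370) and 1.81 (1.57 to 2.10). Ccnb2 (cyclin B2) was at 76.2, 34.2 and 50.3 CPM, at folds of 0.449 (0.373 to 0.538) and 1.47 (1.22 to 1.78). Old rMETRNL stood between the other libraries for these 3 mitotic genes, and 0 of 21 genes of the list were higher in old rMETRNL than in young PBS.

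Of 13 Notch genes 8 were higher in old PBS than in young PBS, with 2 past 1.5-fold, and of 15 BMP and TGF-beta genes 12 were higher, with 3 past it, against 45% of all genes higher and 6.92% past 1.5-fold. For so short a list as the Notch genes the count of 8 is near that share. Among cells under 5000 UMIs 10 Notch genes and 8 BMP and TGF-beta genes had a fold for age above 1. Dll1, a Notch ligand, was at 21.2, 52.7 and 35.2 CPM in young PBS, old PBS and old rMETRNL, at folds of 2.49 (2.03 to 3.06) and 0.668 (0.561 to 0.797). The tip cell Notch ligand Dll4 was at 78.8, 117 and 102 CPM, at folds of 1.48 (1.32 to 1.67) and 0.870 (0.779 to 0.972), and the Notch target Hes1 at 203, 346 and 224 CPM, at folds of 1.71 (1.59 to 1.84) and 0.647 (0.605 to 0.693). Among BMP targets, Id1 was at 206, 366 and 301 CPM, at folds of 1.78 (1.66 to 1.90) and 0.822 (0.772 to 0.876), and Id3 at 387, 528 and 411 CPM, at folds of 1.36 (1.29 to 1.44) and 0.780 (0.740 to 0.822). The ligand Bmp6 was at 15.8, 30.9 and 25.7 CPM, with a fold for age of 1.95 (1.51 to 2.51), while its fold for treatment of 0.833 had an interval of 0.669 to 1.04 that spans 1. Its fold for age was 0.991 in cells under 5000 UMIs.

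Immediate early genes, which are switched on within minutes of a stimulus, had a fold for age above 1 for 17 of 17 and a fold for treatment above 1 for 0 of 17, and in cells under 5000 UMIs for 13 and 8 of 17. For age 6 of them were past 1.5-fold higher and for treatment 3 past it lower. Egr1, a zinc finger transcription factor, was at 564, 1309 and 742 CPM in young PBS, old PBS and old rMETRNL, at folds of 2.32 (2.23 to 2.42) and 0.567 (0.547 to 0.588). Fosb was at 305, 621 and 421 CPM, at folds of 2.04 (1.93 to 2.15) and 0.678 (0.645 to 0.713), and Klf4, a flow-responsive factor of endothelium, at 218, 448 and 294 CPM, at folds of 2.05 (1.92 to 2.19) and 0.656 (0.618 to 0.696). All of them were highest in old PBS. The cell cycle inhibitor Cdkn1a (p21) was at 474, 1077 and 739 CPM, at folds of 2.27 (2.17 to 2.37) and 0.686 (0.660 to 0.712), and the stress gene Gadd45b at 157, 362 and 181 CPM, at folds of 2.31 (2.14 to 2.49) and 0.4996 (0.465 to 0.536). Phlda3, a p53 target, differed in the other direction, at 46.1, 33.6 and 67.8 CPM, with a fold for treatment of 2.02 (1.68 to 2.44).

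Interferon-stimulated genes did not share a direction for age, with a median log2 ratio of -0.01 over 21 genes, 6 past 1.5-fold higher and 5 past 1.5-fold lower. Ifit1, an RNA-binding antiviral protein, was at 463, 869 and 453 CPM in young PBS, old PBS and old rMETRNL, at folds of 1.88 (1.79 to 1.97) and 0.522 (0.499 to 0.546). The interferon-inducible GTPase Iigp1 was at 1449, 2662 and 1579 CPM, at folds of 1.84 (1.79 to 1.89) and 0.593 (0.579 to 0.608), the second of which was 1.004 in cells under 5000 UMIs. Bst2 (tetherin) was at 1465, 765 and 950.3 CPM, at folds of 0.522 (0.502 to 0.543) and 1.24 (1.19 to 1.29), and Ifi27l2a at 726, 245 and 365 CPM, at folds of 0.338 (0.316 to 0.361) and 1.49 (1.39 to 1.60). These genes thus split into a set highest in old PBS and a set highest in young PBS. For treatment the list median was -0.31, or 0.09 in cells under 5000 UMIs, with 0 genes past 1.5-fold higher and 4 past 1.5-fold lower. Genes with near-identical copies, such as Iigp1 and H2-Q4, are uncertain, since reads that match several genes are not counted by this kind of pipeline.

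Cxcl9 and Cxcl10, chemokines that draw lymphocytes, were highest in old PBS. Cxcl9 was at 741, 1224 and 749 CPM in young PBS, old PBS and old rMETRNL, and Cxcl10 at 1629, 2441 and 1477 CPM, with folds for treatment of 0.612 (0.590 to 0.635) and 0.605 (0.590 to 0.621). Cxcl12, which retains progenitor cells, was at 637, 961 and 1027 CPM, higher in both old libraries, with a fold for treatment of 1.07 (1.03 to 1.11). The MHC class I gene H2-Q4 was at 178, 267 and 159 CPM, while the median over 12 class I genes was -0.15 for age and -0.19 for treatment, the latter 0.09 in cells under 5000 UMIs. Selp was at 378, 743 and 365 CPM but came from 80, 61 and 112 cells, and Ackr1 at 62.8, 115 and 42.0 CPM came from 44, 33 and 41 cells, of which 5 held 47.1%, 48.1% and 51.8% of its UMIs. The UMIs of Selp and Ackr1 thus came from few cells, while Vwf, at 79.5, 145 and 72.6 CPM, was found in 196, 183 and 209 cells. With at least 4 Gpihbp1 UMIs asked of a cell the Ackr1 folds turned to 0.952 and 1.07, and with cells thinned to 2000 UMIs before gating the Selp fold for treatment turned to 1.13. Cd74, the invariant chain of MHC class II, was at 64.8, 126 and 53.3 CPM in the members against 6113 CPM in Ptprc positive cells of old PBS, and the part of immune RNA in it was not tested. Its fold for age of 1.94 turned to 0.882 with that thinned gate.

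Glycolysis and hypoxia genes were lower in old PBS for 17 of 20, against 55% of all genes. Of these 20 genes, 3 were past 1.5-fold lower, against 7.95%, and 3 past it higher, against 6.92%. They were higher in old rMETRNL than in old PBS for 17 of 20, against 55%, with 6 past 1.5-fold higher, against 5.11%, and 1 past it lower. In cells under 5000 UMIs 10 of 20 had a fold above 1 in either contrast, near the share over all genes there. Egln3, an oxygen-sensing prolyl hydroxylase, was at 15.1, 2.48 and 11.5 CPM in young PBS, old PBS and old rMETRNL, found in 57, 10 and 48 cells, at folds of 0.165 (0.0799 to 0.306) and 4.66 (2.49 to 9.64). Ankrd37, a hypoxia-induced gene, was at 39.7, 10.6 and 34.5 CPM, at folds of 0.267 (0.192 to 0.364) and 3.26 (2.39 to 4.54). Its fold for treatment turned to 0.713 and the list's treatment median to -0.07 in cells under 5000 UMIs. The glycolytic enzymes Gapdh, at 1119, 825 and 1076 CPM, and Pkm, at 559, 432 and 595 CPM, differed by less than 1.5-fold. The regulator of glycolysis Pfkfb3 ran against the list, at 135, 237 and 170.1 CPM, at folds of 1.76 (1.61 to 1.92) and 0.717 (0.661 to 0.777).

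Depp1, an autophagy-linked target of FOXO factors that lies on chromosome 6 at 116650609 to 116652794, had the lowest fold for age of the genes ranked. It was at 142, 18.7 and 64.7 CPM in young PBS, old PBS and old rMETRNL, found in 148, 41 and 147 cells, with a fold for age of 0.132 (0.104 to 0.165) and a fold for treatment of 3.46 (2.74 to 4.42). It was at 0.178 CPM in Ptprc positive and 0.0400 CPM in Pdgfra positive cells of old PBS, but the other endothelial cells held it in the same order as the members, at 119, 18.4 and 50.7 CPM, with a fold for age of 0.154 (0.104 to 0.221) and a fold for treatment of 2.76 (1.87 to 4.18). The Depp1 difference was thus shared with endothelial cells outside the gate. Tchh (trichohyalin) had the opposite pattern at a low level, 1.31, 18.5 and 4.17 CPM in 9, 50 and 26 cells, with a fold for age of 14.1 (7.30 to 30.5) and a fold for treatment of 0.225 (0.147 to 0.339).

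Other sides of endothelial function varied from gene to gene. The junction gene Jam2 was at 209, 321 and 249 CPM in young PBS, old PBS and old rMETRNL, at folds of 1.53 (1.43 to 1.65) and 0.776 (0.725 to 0.830), while Plvap, which forms the diaphragms of fenestrae, was at 616, 491 and 513 CPM. The arterial connexin gene Gja4 was at 61.1, 25.2 and 36.4 CPM, at folds of 0.413 (0.333 to 0.508) and 1.44 (1.16 to 1.81), although the arterial transcription factor gene Sox17 was at 242, 236 and 244 CPM. The flow-responsive factor Klf2 was at 414, 534 and 420.0 CPM, in the same order of libraries as Klf4. Of 12 heat shock genes 9 were higher in old PBS than in young PBS and 12 were higher in old rMETRNL than in young PBS, 0 of them past 1.5-fold, and within cells of at least 5000 UMIs the age median of the list turned to -0.08. The co-chaperone Dnaja1 was at 1237, 1773 and 1682 CPM and Hspa5, the chaperone of the endoplasmic reticulum, at 788, 1122 and 1008 CPM, and both were higher in each old library. The mitochondrial chaperone Hspd1 was at 316, 302 and 432 CPM, with a fold for treatment of 1.43 (1.34 to 1.53). Of 16 genes of fatty acid oxidation and PPAR targets 4 had a fold for age above 1, with 1 past 1.5-fold higher and 3 past it lower. Among the enzymes that burn fatty acids in mitochondria, Acadl at 137, 104 and 138 CPM and Hadha at 109, 81.6 and 105 CPM were lower in old PBS, Hadhb was level at 64.0, 64.0 and 63.8 CPM, and Acadm was highest there at 40.1, 47.99 and 41.5 CPM. Cpt2, which releases fatty acids from carnitine inside mitochondria, was at 9.82, 4.51 and 6.19 CPM, a fold for age of 0.459 (0.265 to 0.760) that turned to 1.45 when cells were thinned to 2000 UMIs before gating. Pdk4, a kinase that restrains glucose oxidation, was the gene past 1.5-fold higher, at 4.45, 9.91 and 4.88 CPM, and the uncoupling protein gene Ucp2 was at 81.4, 49.3 and 58.5 CPM. Vim, the intermediate filament vimentin, from a list of 9 mesenchymal transition genes with medians of -0.01 for age and 0.23 for treatment, was at 8009, 5975 and 8204 CPM, at folds of 0.746 (0.735 to 0.757) and 1.37 (1.35 to 1.39), and the secreted protein gene Igfbp7 differed little, at 5642, 5384 and 5404 CPM.

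The injected protein's own gene and its candidate receptor were also read in these cells. Metrnl was at 23.4, 37.9 and 36.4 CPM in young PBS, old PBS and old rMETRNL, with a fold for age of 1.62 (1.30 to 2.01) and a fold for treatment of 0.962 (0.794 to 1.17), and Ptprc positive cells of old PBS held 206 CPM. Kit, a receptor tyrosine kinase, was at 69.5, 55.4 and 75.8 CPM, at folds of 0.797 (0.683 to 0.929) and 1.37 (1.18 to 1.59). Kitl, the KIT ligand that endothelium supplies to neighbouring cells, was at 520.2, 672 and 698 CPM, with a fold for age of 1.29 (1.23 to 1.36) and a fold for treatment of 1.04 (0.993 to 1.08). Kit was lowest in old PBS, while for Metrnl and Kitl the interval of the fold for treatment spanned 1 and both old libraries were above young PBS.

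**Figure D4:**
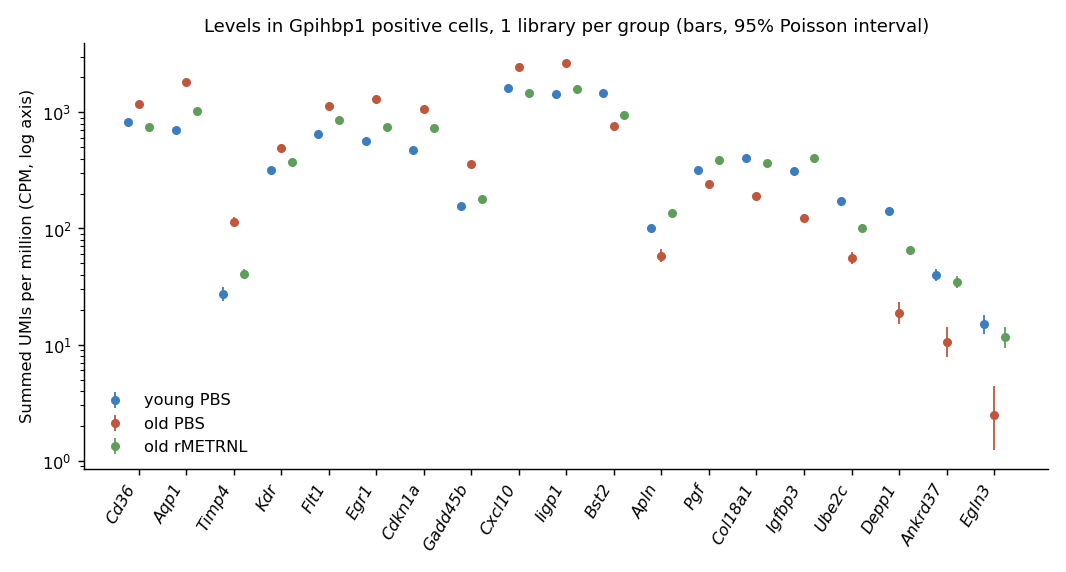
CPM in Gpihbp1 positive cells (vertical log axis) for 19 genes (horizontal axis), one point for each of young PBS, old PBS and old rMETRNL. Old PBS is the highest library for Aqp1, Timp4, Flt1, Egr1 and Cdkn1a and the lowest for Apln, Col18a1, Igfbp3, Ube2c and Depp1.

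Since summed CPM follows the deep cells and old PBS had fewer of them, the contrasts were read again within cells of at least 5000 UMIs and within cells under 5000 UMIs. The depth classes differed from each other in every library: the median log2 ratio of deep over shallow cells was 1.75, 2.42 and 1.89 for cell cycle genes in young PBS, old PBS and old rMETRNL, 0.46, 0.59 and 0.75 for tip and sprouting genes, -0.76, -0.64 and -1.04 for capillary and lipid handling genes, and -1.35, -0.99 and -1.24 for immediate early genes. Shallow members thus held more capillary and immediate early RNA per UMI and deep members more cell cycle and sprouting RNA. The gate asked for the same number of marker UMIs at any depth, so it favoured shallow cells rich in capillary RNA. The gate genes themselves had medians of -0.42, -0.38 and -0.59, and the capillary difference between depth classes is not read apart from the gate. The age medians within deep and shallow cells were 0.12 and -0.01 for capillary and lipid handling genes, 0.25 and 0.33 for immediate early genes, -0.12 and -0.25 for tip and sprouting genes, -0.43 and -0.16 for cell cycle genes and -0.32 and -0.02 for glycolysis and hypoxia genes. The treatment medians within deep and shallow cells were -0.30 and 0.07, -0.33 and -0.06, 0.30 and 0.05, 0.15 and 0.39, and 0.40 and -0.07 for the same lists. The age median of the capillary list was thus nearer to 0 within either depth class than over all members, and that of the immediate early list stayed above 0 in both.

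Single genes behaved unevenly under this split. Depp1 kept folds for age of 0.137 and 0.105 and folds for treatment of 3.38 and 3.46 in deep and shallow cells, and Egr1 kept folds for age of 1.8 and 1.78 and folds for treatment of 0.654 and 0.807. Timp4 had folds for age of 2.91 and 1.84, but its fold for treatment of 0.302 in deep cells was 0.969 in shallow cells. Aqp1 had folds for age of 1.96 and 1.46, with folds for treatment of 0.627 and 1.03. Igfbp3 had folds for treatment of 3.48 and 1.16, so its difference lay in deep cells, and Col18a1 had folds for treatment of 1.69 and 4.63. Lpl had folds for age of 1.41 and 0.901 and folds for treatment of 0.732 and 1.36 in deep and shallow cells, and Cxcl10 had folds for age of 1.48 and 2.58. In deep cells, where each library had at least 244 members, the direction of both contrasts was the same as over all members for each gene named in this paragraph.

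**Figure D5:**
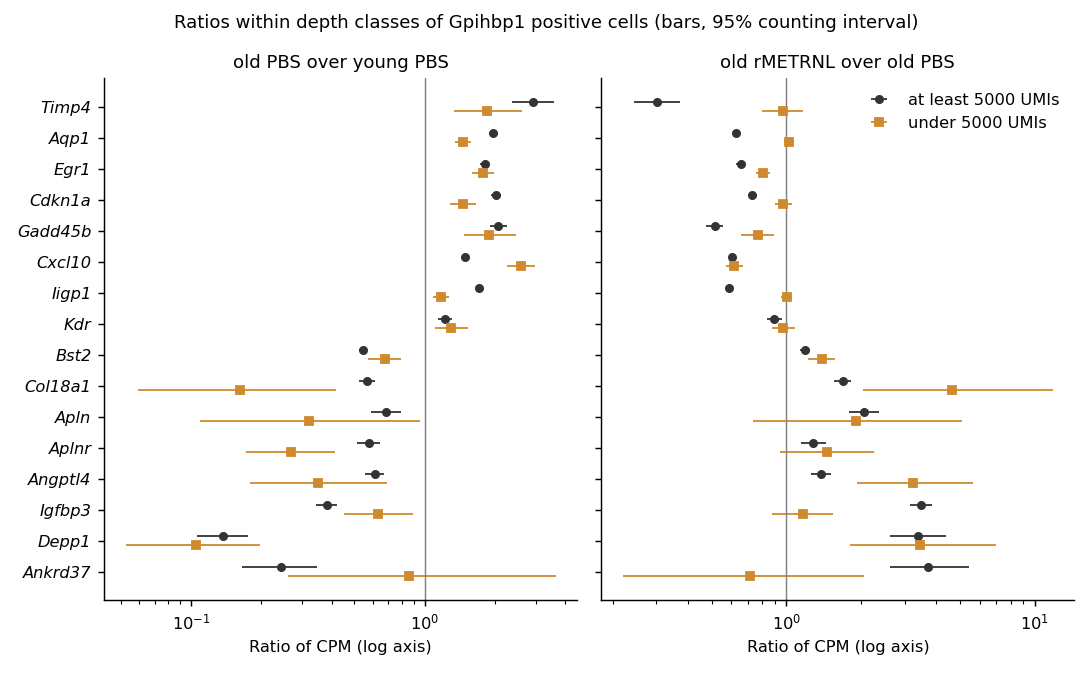
Fold for age (old PBS over young PBS) and fold for treatment (old rMETRNL over old PBS) for 16 genes within Gpihbp1 positive cells of at least 5000 UMIs and under 5000 UMIs (log axes), with bars for the 95% counting interval. Depp1 lies at like values in both depth classes, while the folds for treatment of Timp4, Aqp1 and Igfbp3 lie near 1 in the shallow cells.

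RNA of other cells of the muscle was present in the members and differed between libraries. The 7 muscle fibre genes, of which Myh1 missed the minimum of 100 UMIs, summed to 47.0, 876 and 179.6 CPM in young PBS, old PBS and old rMETRNL, and to 93.3, 616 and 189 CPM in Ptprc positive cells of the same libraries. Acta1 (skeletal actin) was at 6.81, 258 and 45.7 CPM in 43, 244 and 116 cells, a fold for age of 37.8 (28.6 to 51.0). Of its UMIs 5 cells held 63.6% in old PBS, and 1 cell held 54.7% in old rMETRNL. Without the UMIs of the top 5 cells of each library it was at 4.97, 93.7 and 17.1 CPM, so the size of that fold rested in part on few cells. The 10 macrophage genes summed to 425, 581 and 403 CPM against 27586, 25712 and 26504 CPM in Ptprc positive cells, with Lyz2 at 162, 259 and 179 CPM. The 6 fibro-adipogenic genes summed to 637, 574 and 313 CPM, with Dcn at 26.8, 114 and 34.0 CPM and Col1a1 at 219.9, 119.9 and 69.5 CPM, whose fold for age of 0.545 turned to 1.22 with doublet calls removed. The 7 mural genes of pericytes and smooth muscle summed to 812, 1149 and 926 CPM against 54.5, 37.4 and 33.0 CPM in Ptprc positive cells, with the pericyte marker Rgs5 at 593, 943 and 655 CPM in the members, so mural RNA was above its level in immune cells in every library. Rgs5 had a fold for age of 1.59 (1.52 to 1.66), or 0.770 in cells under 5000 UMIs, while the median log2 ratio over the 7 mural genes was -0.16 for age and -0.14 for treatment, a different sign from the summed level for age, and that age median turned to 0.18 with doublet calls removed. The muscle fibre signal was in other cell classes of old PBS as well, and its part in the contrasts of the members was not tested. No gene of these lists was at 0 in any library, while of 4 T and NK cell genes 1 was at 0 in young PBS and 3 were at 0 in each old library.

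Several of the most uneven genes rested on single cells. In young PBS 1 cell held 94.95% of the Hba-a1 UMIs and 92.2% of the Hbb-bs UMIs, both haemoglobin genes of red cells, and in old rMETRNL 1 cell held 76.2% and 81.5% of them. One cell held 67.8% of the young PBS UMIs of Gal, the neuropeptide galanin, and 5 cells held 75.5% of its old rMETRNL UMIs, where the fold for treatment was 9.11 (6.72 to 12.6). The muscle genes Ttn and Chrna1 had 69.2% and 76.1% of their young PBS UMIs in 1 cell, and 64.1% and 43.9% in old rMETRNL. Chga (chromogranin A) was at 130.4, 30.0 and 69.7 CPM in 59, 9 and 48 cells, and 5 cells held 92.5% of its old PBS UMIs. The counting intervals do not cover this unevenness between cells, and no library difference is read from these 6 genes.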

How the data were processed

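Single-cell suspensions from 3 pooled samples per group were run on the 10x Chromium platform, and the authors deposited filtered gene-by-cell matrices of raw UMI counts, 1 per library. The submitters' processing notes name Cell Ranger 3.1.0 and 5.0.0 and the mm10 genome build (GRCm38). Counts were not rescaled before deposit, and 99.8% of the 32285 features matched GENCODE M21 by gene ID.

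UMIs were summed over the gated cells of each library and divided by their total (CPM). Genes with at least 100 UMIs over the 3 libraries were compared. Levels and ratios have exact Poisson and exact conditional binomial intervals, and shares have Clopper-Pearson intervals, all at 95%. With 1 library per group no test was run. Summed depth was 7639126, 4438615 and 8403273 UMIs in young PBS, old PBS and old rMETRNL. List medians used log2 ratios with 0.5 UMI added. A difference was counted when it was past 1.5-fold.

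The members and the 37 gene lists were chosen with earlier results of these data known. Named genes were the gate genes, up to 4 genes of each list with the most UMIs and up to 3 with ratios furthest from 1, the 10 highest and 10 lowest for age and for treatment by the interval bound nearest to 1 (leaving out genes 5 times higher in Ptprc positive or Pdgfra positive cells), and the 20 highest and 10 lowest over other endothelial cells. The values of 1 gene that this rule names are not reported here. Lpl, Cd36, Lamb2, Cpt2, Acadm, Hadhb, Pdk4, Pcna and Ucp2 were added after their values were seen. Doublets were kept; Scrublet in scanpy 1.11.5 found none by its automatic threshold, so the highest scores at 0.8% per 1000 barcodes were called, which marked 6.34%, 3.42% and 5.11% of members and were removed in an alternative. The count steps recovered known folds when tested on simulated data. Another 11 settings were planned and 1 was added after seeing the data. Python 3.11.15, numpy 2.4.6, scipy 1.17.1 and pandas 2.3.3 were used.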

Additional observations from a re-analysis of the deposited data

Results flagged for a closer look

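For 9 genes the Gpihbp1 positive cells and the other endothelial cells of the same libraries moved past 1.5-fold in opposite directions, and none of these differences was tested, since each group was 1 library. The treatment ratio of Ccl21a, a chemokine of lymphatic vessels with near-identical copies in the genome, was 0.520 in the Gpihbp1 positive cells and 1.76 in the others, but all of its UMIs in the Gpihbp1 positive cells came from 3 cells of old PBS, 2 of old rMETRNL and 1 of young PBS. The age ratio of Cd74 was 1.94 against 0.540 and that of H2-Aa 2.11 against 0.419, both genes of MHC class II that were far higher in Ptprc positive cells, and that of Cd74 fell to 0.882 when cells were thinned to 2000 UMIs before gating, on the same side of 1 as the other endothelial cells. The age ratio of the fibrillar collagen gene Col1a1 was 0.545 against 2.45 and that of Col1a2 0.520 against 1.999, and 5 cells held 71.6% of the young PBS UMIs of Col1a1, whose ratio turned to 1.22 with doublet calls removed, 1.30 with the thinned gate and 1.46 in cells under 5000 UMIs. The haemoglobin genes had age ratios of 0.190 against 15.4 for Hba-a1, 0.165 against 12.5 for Hba-a2, 0.278 against 8.88 for Hbb-bs and 0.219 against 13.4 for Hbb-bt, with 94.95% of the young PBS Hba-a1 UMIs of the Gpihbp1 positive cells in 1 cell and an Hba-a1 ratio of 3.06 with doublet calls removed and 2.28 in cells under 5000 UMIs. In the settings given for each, the ratios of Col1a1 and Hba-a1 lay on the same side of 1 as the main ratios of the other endothelial cells. For these genes and Cd74, ratios of the other endothelial cells in those settings are not given here. All 9 are genes that other cell classes of the muscle make.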

How the results depend on the processing

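No paired analysis was possible because each group had 1 library, so a replicate number shared by the libraries pairs nothing, and no library could be left out. Over 11 settings, 465 of 562 list medians and 1415 of 2099 gene ratios stayed within 0.2 (medians) or within the counting interval (ratios), 29 and 30 turned direction, counting only medians of at least 0.1 and ratios past 1.5-fold, and the rest moved without turning. Size factors, leaving out background-prone genes, the stricter cell filter (at least 1000 genes and under 5% mitochondrial UMIs), a gate at 1 Gpihbp1 UMI and a gate at 6 marker UMIs turned none. The share of kept cells had an age ratio of 0.837 in cells of at least 5000 UMIs and 1.12 with at least 4 Gpihbp1 UMIs, and a treatment ratio of 1.34, 0.863 and 1.10 in cells of at least 5000 UMIs, under 5000 UMIs and with at least 4 Gpihbp1 UMIs. In the depth classes these shares are of kept cells of the same depth, while the earlier ratios per kept cell used kept cells of any depth. Genes past 1.5-fold, over 673 higher and 773 lower for age and 497 higher and 516 lower for treatment, numbered 348, 321, 157 and 105 with every cell thinned to 2000 UMIs before gating, 383, 372, 210 and 251 at a minimum of 300 UMIs, 2750, 1897, 1568 and 2657 with no minimum, and 311, 200, 63 and 65 in cells under 5000 UMIs. By the mean of per-cell CPM they numbered 1261, 1356 and 808 for the first 3 counts. In cells under 5000 UMIs, a setting added after seeing the data, the age medians turned to -0.013 for capillary, -0.23 for venous, -0.14 for leukocyte adhesion, 0.14 for mural and 1.20 for red cell genes, and the treatment medians to 0.068 for capillary, 0.27 for venous, 0.041 for leukocyte adhesion, 0.093 for interferon, 0.090 for MHC class I, 0.080 for senescence, 0.030 for macrophage and -0.073 for glycolysis genes. There the age ratios turned to 0.991 for Bmp6, 1.46 for Col1a1, 1.45 for Fn1, 2.28 for Hba-a1, 0.901 for Lpl, 1.71 for Nupr1, 0.770 for Rgs5 and 4.56 for Ttn, and the treatment ratios to 1.43 for Ackr1, 0.713 for Ankrd37, 1.03 for Aqp1, 0.238 for Chrna1, 0.648 for Gal, 1.004 for Iigp1 and 0.842 for Prnd. In cells of at least 5000 UMIs the age medians turned to -0.076 for heat shock and 0.070 for mural genes. With at least 4 Gpihbp1 UMIs the medians for age and treatment turned to -0.15 and 0.17 for venous and -0.77 and 0.080 for FAP genes, and the Ackr1 ratios to 0.952 and 1.07. With doublet calls removed they turned to 1.24 and -0.62 for red cell genes, the ratios to 3.06 and 0.586 for Hba-a1 and 1.25 and 0.999 for Ttn, the mural age median to 0.18 and the Col1a1 age ratio to 1.22. With the thinned gate the age medians turned to -0.32 for venous, 0.66 for mural and -0.18 for MHC class II genes, the venous treatment median to 0.31, the age ratios to 0.882 for Cd74, 1.30 for Col1a1, 1.45 for Cpt2, 1.03 for Gal and 2.53 for Ttn, and the Selp treatment ratio to 1.13. By the mean of per-cell CPM the venous medians turned to -0.53 and 0.23, the mural age median to 0.14 and the age ratios to 1.01 for Chrna1 and 1.84 for Ttn. The cause of these changes was not tested, beyond the fewer cells or genes that a setting leaves. Depth set a floor of 3 UMIs, or 0.393, 0.676 and 0.357 CPM in young PBS, old PBS and old rMETRNL, below which a level could not be told from 0.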
